A study of Mus musculus with 6 samples.

Results

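The NDRG (N-myc downstream regulated gene) family of the mouse has 4 members, Ndrg1, Ndrg2, Ndrg3 and Ndrg4, and every member was measured here in 6 single-cell RNA libraries. The family was chosen because the study edited Ndrg2, and the question was which other members change where Ndrg2 is low and in which wound cell types each is found. These 4 genes are 4 of the 31063 features of each dendritic cell library and of the 31065 features of each wound library. The study asked what loss of Ndrg2 does to dendritic cells (DCs) grown from mouse bone marrow, and what such cells do when they are put on skin wounds in a hydrogel.

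The DC libraries came from 3 cultures of bone marrow of wild-type (C57BL/6J) mice. They were untreated DCs and DCs given 1e-06 M calcitriol (vitamin D3, VD3) for 24 hours from culture day 7. The other culture was of DCs nucleofected with Cas9 protein and 3 Ndrg2 guide RNAs (Ndrg2-KO). The wound libraries came from splinted skin wounds of wild-type (C57BL/6J) mice explanted on day 10, with 5 mice per group. The wounds were treated with a hydrogel carrying control DCs, a hydrogel carrying Ndrg2-KO DCs, or a blank hydrogel. Each condition is 1 library, so no difference below has a replicate check, and every interval is a 95% interval for counting error only. The untreated DCs were not nucleofected, so the effects of nucleofection and of Ndrg2 loss on the Ndrg2-KO DCs cannot be told apart. The labels call the control DCs of the wounds untreated, whereas the methods describe non-targeting guides for control cells.

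After filtering, the untreated, VD3 and Ndrg2-KO DC libraries held 7257, 8825 and 7969 cells with 132574308, 116461484 and 143627482 UMIs. Their median depths were 15804, 12089 and 16316 UMIs per cell. The control-DC, Ndrg2-KO-DC and blank wound libraries held 1948, 5681 and 3403 cells with 29675507, 49240341 and 34905741 UMIs, at median depths of 10795, 4415 and 5603 UMIs per cell. The wound libraries therefore differed in depth per cell, and levels are given as counts per 1000000 UMIs of the library (CPM).

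NDRG proteins share an alpha/beta hydrolase-like fold without known enzyme activity. Ndrg1 is known as a gene induced by hypoxia and by differentiation and repressed by Myc, and its protein is phosphorylated by the kinases Sgk1 and Gsk3. Ndrg2, Ndrg3 and Ndrg4 are best known from astrocytes, testis and lactate signalling, and heart and brain, respectively.

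In the GENCODE annotation of mouse genome build GRCm38, Ndrg1 (ENSMUSG00000005125) lies on the minus strand of chromosome 15 from 66929318 to 66969640. Ndrg2 (ENSMUSG00000004558) lies on the minus strand of chromosome 14 from 51905271 to 51914158. Ndrg3 (ENSMUSG00000027634) lies on the minus strand of chromosome 2 from 156927345 to 156992056, and Ndrg4 (ENSMUSG00000036564) on the plus strand of chromosome 8 from 95676980 to 95715119. No protein-coding gene overlaps any member; Gm17035, antisense to Ndrg1, had 15 UMIs over all barcodes of the 6 libraries. Ndrg2 and Ndrg4 transcripts share 9 sequences of 25 bases, of 3442 in Ndrg2 and 4979 in Ndrg4, and no other pair of members shares any, and the share of reads given to the wrong member was not tested.

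Of the 3 Ndrg2 guides that the methods name for the Ndrg2-KO DCs, 1 matched the Ndrg2-201 transcript exactly, ctcctgaagttctgccatggTGG, where capitals mark the 3 bases of the protospacer-adjacent motif read from the transcript. It lies on the strand opposite to Ndrg2 at 51911523 to 51911542, in exon 2 of 16 of this annotated transcript, and spans the start codon at 51911538 to 51911540. The site is 1967 bases from the 3′ end of the 2099-base transcript. Because these libraries count 3′ ends, a transcript carrying a small insertion or deletion there is still counted, so Ndrg2 UMIs give the level of its RNA and not the share of edited alleles. The study's guide table places this guide in intron 2 and the other 2 in exon 2. The other 2 guides had no exact match in Ndrg2 transcripts and are not described further.

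Ndrg2 had 613 UMIs (4.62 CPM) in untreated DCs, 165 (1.42 CPM) in VD3 DCs and 127 (0.884 CPM) in Ndrg2-KO DCs. In wounds it had 181 UMIs (6.10 CPM, interval 5.24 to 7.06) with control DCs, 164 (3.33 CPM, 2.84 to 3.88) with Ndrg2-KO DCs and 115 (3.29 CPM, 2.72 to 3.95) with the blank hydrogel. The Ndrg2-KO DC library was the lowest of the 6, as its label states for the gene edited. The wound with Ndrg2-KO DCs and the wound with no DCs had levels that could not be told apart at this depth.

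Ndrg1 had 5185 UMIs (39.1 CPM, 38.1 to 40.2) in untreated DCs, 4450 (38.2 CPM, 37.1 to 39.3) in VD3 DCs and 1855 (12.9 CPM, 12.3 to 13.5) in Ndrg2-KO DCs. Ndrg3 had 1807 UMIs (13.6 CPM, 13.0 to 14.3), 2610 (22.4 CPM, 21.6 to 23.3) and 3017 (21.0 CPM, 20.3 to 21.8) in the same order. Ndrg4 had 797 UMIs (6.01 CPM, 5.60 to 6.44), 268 (2.30 CPM, 2.03 to 2.59) and 374 (2.60 CPM, 2.35 to 2.88).

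Against untreated DCs, Ndrg2 was lower after VD3 (log2 ratio −1.71). Of the 3 other members, 1 was at least 2-fold lower, Ndrg4 (−1.39, interval −1.59 to −1.18), and none was 2-fold higher. The median of these 3 was −0.034, against −0.08 over all genes. Among the 13113 genes counted (50 UMIs or more over the pair), 7.44% were at least 2-fold lower and 4.18% at least 2-fold higher. Ndrg3 was higher by less than 2-fold (0.72, 0.63 to 0.80). Ndrg1 did not differ detectably by summed UMIs (−0.03, −0.09 to 0.02), and its value depended on the processing. It was 0.041 when the median gene was set to no change and 0.052 without mitochondrial and ribosomal protein genes in the total, but −0.18 in cells under 5% mitochondrial UMIs and −0.21 as a mean over cells of CPM.

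In Ndrg2-KO DCs against untreated DCs, Ndrg2, the gene edited, was at −2.39. Of the 3 other members, 2 were at least 2-fold lower, Ndrg1 (−1.60, −1.68 to −1.52) and Ndrg4 (−1.21, −1.39 to −1.03). The median of these 3 was −1.21, against −0.06 over all genes. Of 13329 genes, 9.28% were at least 2-fold lower and 10.2% at least 2-fold higher. Ndrg3 was again higher by less than 2-fold (0.62, 0.54 to 0.71). The directions of all 4 members in this comparison were the same under median-ratio scaling, the mean over cells of CPM, and the total without mitochondrial and ribosomal protein genes. The VD3 and Ndrg2-KO comparisons share the untreated library, so their values are not independent of each other.

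Between Ndrg2-KO and VD3 DCs, which do not share a control, Ndrg1 was the 1 member of 4 past 2-fold (−1.56, −1.64 to −1.49), in a comparison in which 9.21% of 13235 genes were at least 2-fold lower, 13.0% higher and 22.2% past 2-fold either way, so 1 of 4 is near the share over all genes. The size of this Ndrg1 difference depended on how cells were grouped, as given below. Ndrg2 was lower in Ndrg2-KO DCs by less than 2-fold (−0.68, −1.03 to −0.34). Ndrg3 was at −0.09, with the opposite sign as a mean over cells of CPM (0.12) and in cells under 5% mitochondrial UMIs (0.18). Ndrg4 was at 0.18 (−0.05 to 0.41), and at 0.68 and 0.49 under the same alternatives. Within mature DC-like cells Ndrg1 was lower in Ndrg2-KO than in VD3 DCs (−1.10, −1.21 to −0.99), Ndrg4 was higher (0.996, 0.73 to 1.26) and Ndrg3 was lower (−0.50, −0.66 to −0.34). In library sums, Ndrg1 was lower than untreated in 1 of the 2 DC libraries in which Ndrg2 was low, and Ndrg4 was lower and Ndrg3 higher in both. Within groups of cells, given below, Ndrg1 and Ndrg4 did not always follow these sums. After VD3, Ndrg1 was lower than untreated in mature DC-like cells and in every group of cells made by markers. Its log2 ratios were −0.31 with mature markers only, −1.25 with premature markers only, −0.50 with both and −0.93 with neither.

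**Figure D1:**
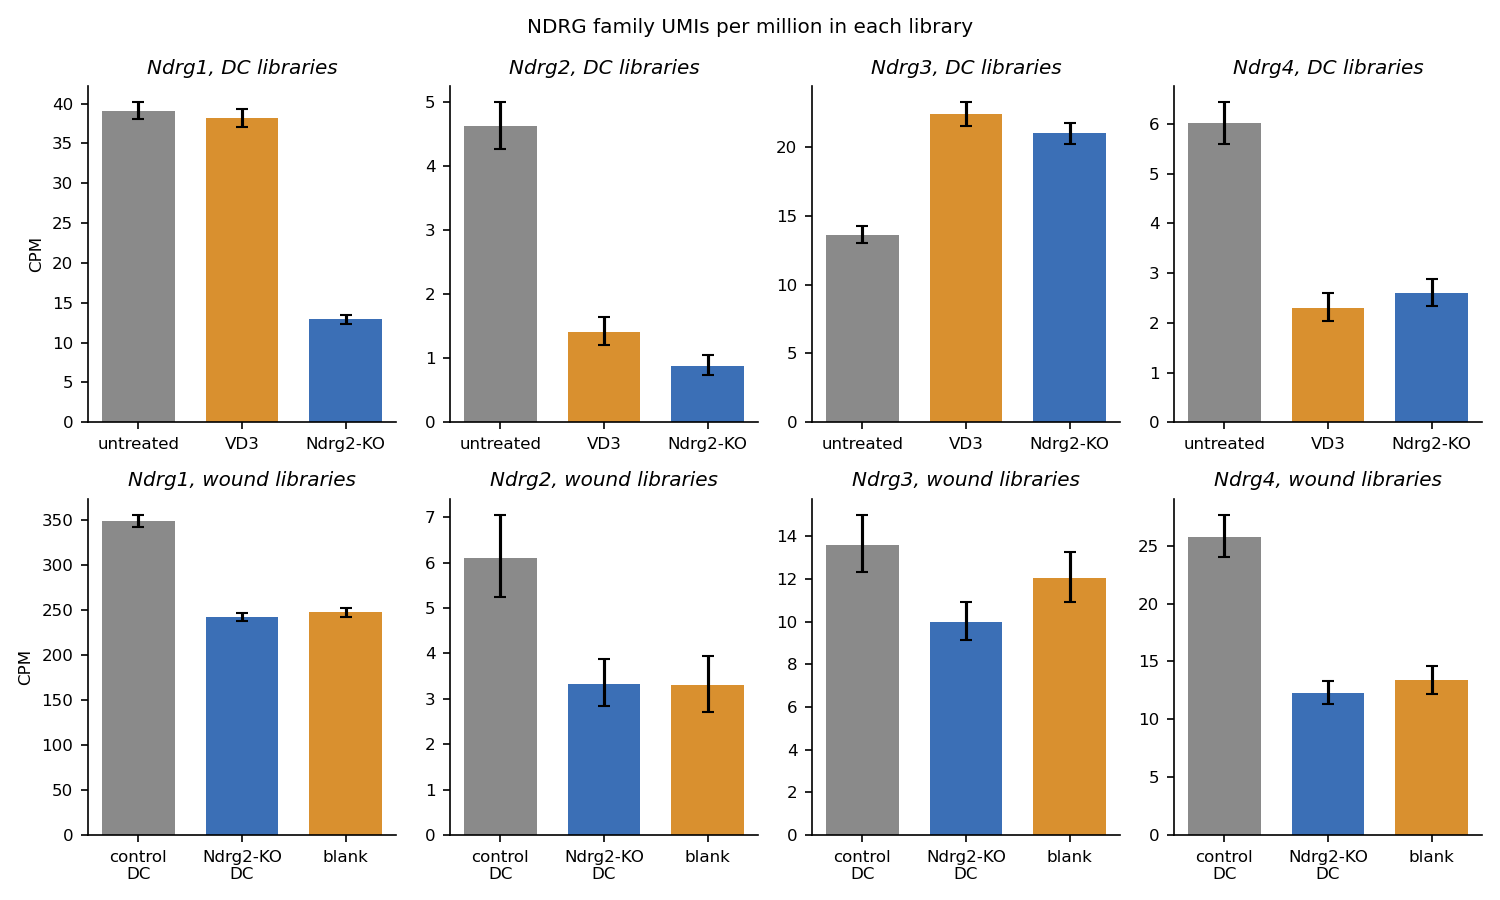
CPM (bars) of each NDRG member in the DC libraries (top) and wound libraries (bottom), 1 library per bar, with exact 95% Poisson intervals and a separate vertical axis per panel. Ndrg1 was at 39.1, 38.2 and 12.9 CPM in untreated, VD3 and Ndrg2-KO DCs, and at 349, 242 and 247 CPM in the control-DC, Ndrg2-KO-DC and blank wounds.

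When each DC was drawn down to 2000 UMIs, leaving out 472, 1149 and 134 shallower cells, 7.30% of untreated, 6.90% of VD3 and 3.28% of Ndrg2-KO DCs held an Ndrg1 UMI. Without drawing, the shares were 34.7%, 26.3% and 15.7%. For Ndrg2 the drawn shares were 0.914%, 0.404% and 0.243%, and the undrawn shares 5.58%, 1.496% and 1.23%. For Ndrg3 they were 2.21%, 4.42% and 3.97% drawn and 20.2%, 22.7% and 29.4% undrawn. For Ndrg4 they were 1.59%, 0.404% and 0.664% drawn and 8.53%, 2.79% and 3.90% undrawn. The neutrophil-like cluster of the DC cultures was assumed, and not shown, to lack Ndrg2. In it 0 of 658 drawn untreated cells and 5 of 925 undrawn cells (0.541%) held an Ndrg2 UMI, at a median depth of 2953 UMIs. Ndrg4 was held by 2 of those 925 cells (0.216%).

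Clusters of the 3 DC libraries were mostly made of 1 library each, so a cluster can be a library and not a cell type. Clusters were named from marker lists, and 4 of 15 were mature DC-like. Most untreated mature DC-like cells (2575 of 2688) were in the cluster led by Eno3, Grasp and Dscaml1, most VD3 cells (3297 of 3488) in the one led by Olfr920, Ndnf and Lcn8, and most Ndrg2-KO cells (1828 of 2111) in the one led by Htra1, Klrd1 and Nebl. These cells were 37.0%, 39.5% and 26.5% of their libraries and held 83.8%, 86.6% and 62.6% of the Ndrg4 UMIs and 62.1%, 76.0% and 43.1% of the Ndrg1 UMIs.

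Within mature DC-like cells, Ndrg1 was at 78.4, 67.2 and 31.4 CPM in untreated, VD3 and Ndrg2-KO libraries, and Ndrg4 at 16.3, 4.61 and 9.19 CPM. Ndrg2 was at 6.28, 1.65 and 1.45 CPM, and Ndrg3 at 12.3, 24.6 and 17.4 CPM. After VD3, Ndrg2 was at −1.93, and of the 3 other members 1 was at least 2-fold lower, Ndrg4 (−1.82, −2.04 to −1.60), and 1 just past 2-fold higher, Ndrg3 (1.01, 0.85 to 1.16), against 4.18% of 11448 genes lower and 3.91% higher. Ndrg1 was lower there after VD3 by less than 2-fold (−0.22, −0.29 to −0.15). In Ndrg2-KO cells Ndrg2 was at −2.11, and 1 of the 3 others was at least 2-fold lower, Ndrg1 (−1.32, −1.43 to −1.21), against 3.72% of 11213 genes. Ndrg4 was lower by less than 2-fold (−0.82, −1.04 to −0.61). The Ndrg2-KO cells here include 159 cells of the Eno3 cluster, described below. In those, Ndrg4 was at 34.1 CPM (49 UMIs) and Ndrg2 at 11.1 CPM (16 UMIs). Their part in these ratios was not tested, so whether Ndrg4 stays under 2-fold without them is not known.

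Cells were also grouped without clustering, by markers counted after drawing to 2000 UMIs, a rule chosen after seeing the data. Cells with at least 3 mature DC markers and fewer than 3 premature DC markers numbered 2821, 3900 and 1877 in untreated, VD3 and Ndrg2-KO libraries, and cells with the reverse 2410, 754 and 4931. Cells at the limit, with 3 mature markers, numbered 168, 285 and 388, and cells with 2 numbered 272, 432 and 921. In the mature group Ndrg1 was at 76.4, 61.8 and 32.8 CPM, and in the premature group at 15.2, 6.40 and 7.66 CPM. Ndrg4 was at 15.4, 4.05 and 9.64 CPM in the mature group. In the premature group it was at 0.528 CPM in untreated DCs, at 0.837 CPM in Ndrg2-KO DCs and at 0 UMIs in VD3 DCs (interval up to 0.303 CPM).

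Premature-marker cells made up 35.5% of drawn untreated, 9.82% of VD3 and 62.9% of Ndrg2-KO cells, and the part of this mix in the library values was not tested. Within the mature group, the log2 ratios against untreated DCs were −0.31 (VD3) and −1.22 (Ndrg2-KO) for Ndrg1, and −1.93 and −0.68 for Ndrg4. With at least 3 mature markers, whatever the premature ones, Ndrg4 in Ndrg2-KO DCs was at −0.84 (−1.05 to −0.65), and with at least 2 at −1.18, past 2-fold. Within the premature group, Ndrg1 was lower in both (−1.25 and −0.99), Ndrg2 was lower in both (−2.10 and −1.72) and Ndrg3 was higher in both (0.66 and 0.61). Ndrg4 in the premature group was higher in Ndrg2-KO than in untreated DCs (0.67, 0.057 to 1.31), the reverse of the library sums, and lower after VD3 (interval up to −0.72). Ndrg3 was also higher in both within the mature group (0.98 and 0.43). After VD3, Ndrg1 was also lower in cells with both marker sets (−0.50, −0.85 to −0.16) and with neither (−0.93, −1.15 to −0.71). Between Ndrg2-KO and VD3 DCs, Ndrg4 was higher (1.25, 0.99 to 1.52) and Ndrg3 lower (−0.55, −0.72 to −0.39) in the mature group. Ndrg1 was lower there (−0.91, −1.03 to −0.80) and in cells with both marker sets (−0.75, −1.11 to −0.39). It did not differ detectably in the premature group (0.26, −0.077 to 0.62) or in cells with neither set (0.21, −0.30 to 0.67). With at least 3 mature markers, whatever the premature ones, it was past 2-fold (−1.17, −1.27 to −1.07).

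**Figure D2:**
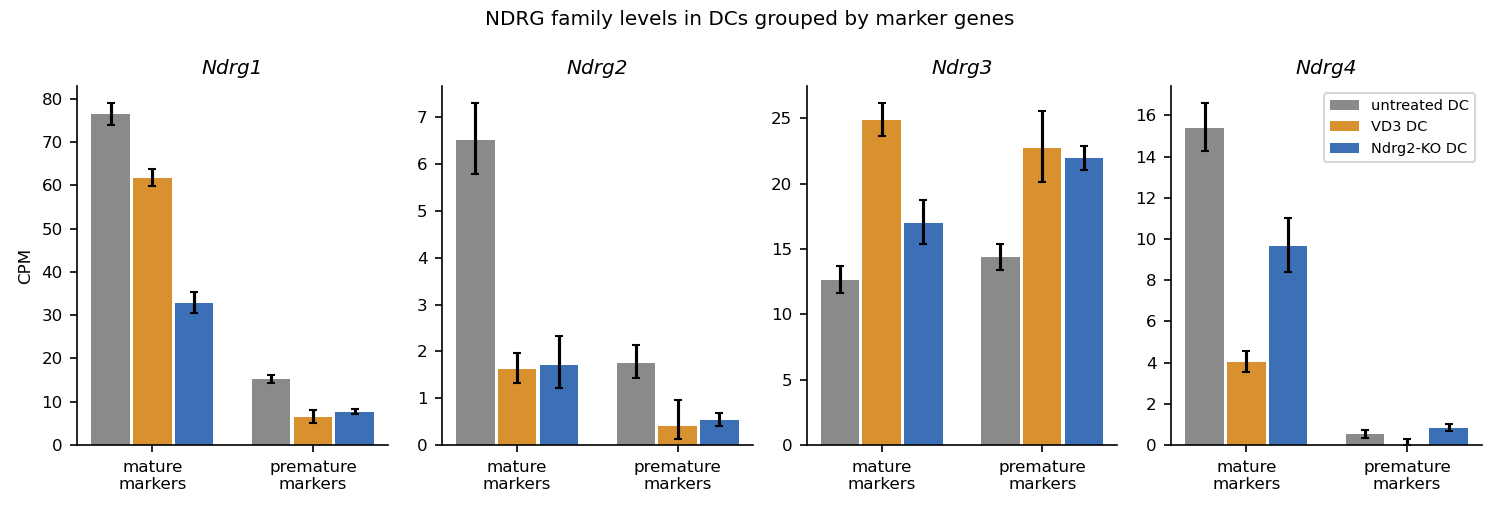
CPM of each member (bars, with exact 95% Poisson intervals) in DCs with at least 3 mature and under 3 premature markers, and in DCs with the reverse, in the untreated (grey), VD3 (orange) and Ndrg2-KO (blue) libraries. Ndrg1, Ndrg2 and Ndrg4 were higher in the mature group in all 3 libraries. Ndrg2 was at 6.52, 1.62 and 1.71 CPM in the mature group and 1.75, 0.410 (5 UMIs) and 0.532 CPM in the premature group. In contrast, Ndrg3 was at 12.6, 24.9 and 17.0 CPM in the mature group and 14.4, 22.7 and 21.98 CPM in the premature group.

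In untreated DCs the highest Ndrg2 level of any cluster with at least 20 cells was in the cDC1-like cluster, which had 93 UMIs in 77 cells (85.1 CPM, 68.7 to 104.3), or 15.2% of that library's Ndrg2 UMIs. The VD3 library had 146 cells in this cluster, with 7 Ndrg2 UMIs (3.59 CPM, 1.45 to 7.41), a log2 ratio of −4.57 (−5.92 to −3.47). In the same cells Ndrg3 was at 14.6 CPM untreated and 15.9 CPM after VD3. The Ndrg2-KO library had 1 cell there. Outside this cluster the Ndrg2 level was 3.95 CPM untreated and 1.38 CPM after VD3.

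The Ndrg2-KO library had 159 cells in the Eno3, Grasp and Dscaml1 cluster that held most untreated mature DC-like cells. In these 159 cells Ndrg2 was at 11.1 CPM (16 UMIs, 6.36 to 18.1), against 6.08 CPM (5.34 to 6.90) in the 2575 untreated cells of the cluster and 0.781 CPM in the rest of the Ndrg2-KO library. Ndrg1 was at 65.4 CPM (52.8 to 80.0) in them and 12.4 CPM in the rest, and Ndrg4 at 34.1 CPM (25.2 to 45.1) and 2.29 CPM. Against the untreated cells of the cluster Ndrg4 (1.06, 0.61 to 1.48) and Ndrg2 (0.87, 0.042 to 1.60) were higher in them. Ndrg3 was lower (−1.13, −2.35 to −0.14), and these directions are the reverse of the library sums. Ndrg1 did not differ detectably from those untreated cells (−0.27, −0.58 to 0.028). Ndrg3 was at 5.56 CPM (8 UMIs) in the 159 cells and 21.2 CPM in the rest of the Ndrg2-KO library. None of these 159 cells had a barcode found in the untreated library, and their origin was not tested. Without them the log2 ratio of library sums in Ndrg2-KO against untreated DCs was −1.66 for Ndrg1 and −1.40 for Ndrg4. These 159 cells are also part of the Ndrg2-KO mature DC-like cells, for which ratios without them were not calculated.

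Genes of 4 lists are given beside the members, and their part in the result was not tested. Over all genes counted, 4.18% were at least 2-fold higher and 7.44% lower after VD3, and 10.2% higher and 9.28% lower in Ndrg2-KO DCs. Among 15 regulators and kinases of NDRG genes, 14 had enough UMIs to be counted in each comparison. After VD3, 2 of them (Epas1 and Vdr) were at least 2-fold higher and Sgk1 was lower (31.2 to 6.53 CPM), with a median log2 ratio of −0.15 against −0.08 over all genes. In Ndrg2-KO DCs 3 were higher than in untreated DCs, Sgk1 (194 CPM), Hif1a (114 to 294 CPM) and Epas1, with a median of 0.00 against −0.06 over all genes. Sgk1 thus moved in opposite directions in the 2 libraries.

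Of 29 hypoxia response genes, 2 of 28 counted were at least 2-fold higher after VD3 (Vegfa and Adm) and 2 lower (Pfkp and Hk2), with a median of −0.07. In Ndrg2-KO DCs 8 of 29 were higher (Vegfa, P4ha2, Ankrd37, Bnip3, Pfkfb4, P4ha1, Pfkl and Bnip3l) and Adm was lower, with a median of 0.42. Gapdh, the most abundant of the list, was at 1746, 1684 and 1436 CPM in untreated, VD3 and Ndrg2-KO DCs. Of 9 early response and heat shock genes, none was past 2-fold after VD3 (median 0.60), and in Ndrg2-KO DCs Fosb, Fos, Egr1 and Dusp1 were lower and Atf3, Hspa1a and Hspa1b higher (median −0.92). Junb, the most abundant, was at 278, 437 and 147 CPM.

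Of 5 vitamin D response genes, 3 were counted after VD3, and Cyp24a1 and Vdr were higher, Cyp24a1 with 36662 UMIs (315 CPM) against 1 UMI in untreated DCs, a log2 ratio of 15.35 (12.87 to 20.65). Vdr was at 51.1, 135 and 55.4 CPM in untreated, VD3 and Ndrg2-KO DCs. In Ndrg2-KO DCs 1 of 2 counted genes was higher, Cd14 (44.3 to 178 CPM). Cyp24a1 was at 0 of 143627482 UMIs in that library.

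The marker lists show how the libraries differed in cells, and their part in the result was not tested. The 8 premature DC markers, led by Lyz2, summed to 9976 CPM in untreated, 4195 in VD3 and 28329.7 CPM in Ndrg2-KO DCs, and 6 of 8 were at least 2-fold lower after VD3. In Ndrg2-KO DCs 4 of 8 were at least 2-fold higher and 2 lower. The 8 mature DC markers, led by Ccl5, summed to 6301, 6199.98 and 5525 CPM, and 1 of 8 was at least 2-fold higher after VD3. In Ndrg2-KO DCs 7 of 8 mature markers were lower, 4 of them by at least 2-fold, while Ccl5 was at 3919 CPM against 3146 CPM in untreated DCs. The 7 neutrophil markers, led by S100a8, summed to 5097, 5937 and 389 CPM. Of these, 3 were at least 2-fold higher after VD3, and in Ndrg2-KO DCs 5 were at least 2-fold lower and 2 higher. No marker of these 3 lists was at 0 UMIs in any DC library. The 6 granulocyte-monocyte progenitor markers summed to 228, 89.4 and 8.45 CPM. All 6 were at least 2-fold lower both after VD3 and in Ndrg2-KO DCs. The 7 basophil markers summed to 69.6, 64.5 and 12.4 CPM, with 5 of them at 0 UMIs in Ndrg2-KO DCs.

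In wounds, Ndrg1 had 10349 UMIs (349 CPM, 342 to 356) with control DCs, 11909 (242 CPM, 238 to 246) with Ndrg2-KO DCs and 8629 (247 CPM, 242 to 252) with the blank hydrogel. Ndrg3 had 404 UMIs (13.6 CPM, 12.3 to 15.0), 492 (9.99 CPM, 9.13 to 10.9) and 421 (12.1 CPM, 10.9 to 13.3) in the same order. Ndrg4 had 765 UMIs (25.8 CPM, 23.98 to 27.7), 605 (12.3 CPM, 11.3 to 13.3) and 467 (13.4 CPM, 12.2 to 14.6).

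With Ndrg2-KO DCs against control DCs, all 4 members were lower and Ndrg4 was the 1 past 2-fold (−1.07, −1.23 to −0.91), where 6.22% of 13358 genes were at least 2-fold lower and 4.39% higher. The others were Ndrg2 (−0.87, −1.19 to −0.56), Ndrg1 (−0.53, −0.57 to −0.49) and Ndrg3 (−0.45, −0.64 to −0.25). The median gene in this comparison was at −0.14, so relative to it the ratio of Ndrg1 was −0.38, and no member changed sign under median-ratio scaling. Under that scaling Ndrg4 was at −0.93 and no longer past 2-fold.

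The blank wound against the same control wound gave similar values, with Ndrg4 at −0.95 (−1.12 to −0.78), Ndrg2 at −0.89 (−1.24 to −0.54), Ndrg1 at −0.50 (−0.54 to −0.46) and Ndrg3 at −0.17 (−0.38 to 0.03). The median of the 3 members other than Ndrg2 was −0.50, against −0.53 with Ndrg2-KO DCs. None of the 4 members was past 2-fold, where 3.89% of 13137 genes were at least 2-fold lower and 3.71% higher, although Ndrg4 was past it as a mean over cells of CPM (−1.35). The 2 comparisons share the control wound. Between the Ndrg2-KO-DC wound and the blank wound none of the 4 was past 2-fold either way, against 3.76% of 13449 genes. Ndrg3 was lower with Ndrg2-KO DCs (−0.27, −0.46 to −0.08), and Ndrg1 (−0.03), Ndrg2 (0.02) and Ndrg4 (−0.12) did not differ detectably. The sign of Ndrg1 there changed to 0.068 under median-ratio scaling, and that of Ndrg2 to −0.34 as a mean over cells of CPM.

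The wound libraries differed in their cells. Fibroblast-like cells were 24.1% of kept cells with control DCs, 8.15% with Ndrg2-KO DCs and 9.49% with the blank hydrogel, and neutrophil-like cells 23.6%, 50.9% and 45.7%. The 7 fibroblast markers, led by Col3a1, summed to 49537 CPM, 22265 CPM and 22572 CPM, and 7 of 7 were lower in both comparisons with the control wound, 6 and 4 of them by at least 2-fold. The 7 neutrophil markers, led by S100a9, summed to 8089 CPM, 25715 CPM and 20067 CPM, and 7 and 6 of them were at least 2-fold higher. No marker of either list was at 0 UMIs, and their part in the result was not tested. In the same order, erythroid markers summed to 1480, 8705 and 3137 CPM and skeletal muscle markers to 10.5, 16.8 and 72.3 CPM. Pericyte or smooth muscle markers summed to 125, 61.6 and 146 CPM, and the part of these lists was not tested either. Fewer cells of a type and less RNA per cell cannot be told apart in library sums.

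Of the Ndrg2 UMIs of each wound library, fibroblast-like cells held 84.5% (control DCs), 81.1% (Ndrg2-KO DCs) and 74.8% (blank). Of Ndrg4 UMIs they held 94.1%, 83.0% and 85.7%, of Ndrg1 UMIs 76.7%, 44.8% and 50.1%, and of Ndrg3 UMIs 54.7%, 34.3% and 36.8%. Over the 3 libraries these cells had 32.9% of all UMIs, but this share differed between libraries. Cells grouped by fibroblast markers, as given below, had 15634217 of 29675507 UMIs with control DCs. They had 14561583 of 49240341 with Ndrg2-KO DCs and 10954191 of 34905741 with the blank hydrogel. In the control wound Ndrg3 was at 14.9 CPM in fibroblast-like cells, near the 13.6 CPM of the whole library.

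Within fibroblast-like cells Ndrg2 was at 10.3, 10.4 and 8.87 CPM with control DCs, Ndrg2-KO DCs and the blank hydrogel, and did not differ detectably between Ndrg2-KO and control DCs (0.01, −0.33 to 0.36). Ndrg4 was at 48.4, 39.2 and 41.2 CPM (−0.31, −0.47 to −0.14, for Ndrg2-KO against control DCs). Ndrg1 was at 533, 416 and 446 CPM (−0.36, −0.41 to −0.31), and Ndrg3 at 14.9, 13.2 and 16.0 CPM (−0.17, −0.47 to 0.12). None of the 4 was at least 2-fold lower in these cells with Ndrg2-KO DCs, against 1.27% of 11004 genes, or with the blank hydrogel, against 0.905% of 10723 genes.

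At a finer clustering, an alternative chosen after seeing the data, fibroblast-like cells split by library. A cluster led by Reg3g, Ngfr and Pgr had 181 of its 186 cells from the wound with Ndrg2-KO DCs, with Ndrg1 at 316 CPM and Ndrg4 at 28.6 CPM. The larger cluster, led by Pamr1, C1qtnf3 and H19, had 467, 281 and 319 cells with control DCs, Ndrg2-KO DCs and the blank hydrogel. In it Ndrg4 was at 48.5, 45.4 and 41.4 CPM and did not differ detectably between Ndrg2-KO and control DCs (−0.096, −0.28 to 0.088). Ndrg1 was at 535, 472 and 447 CPM there, a smaller difference than over all fibroblast-like cells (−0.18, −0.24 to −0.12).

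Outside the fibroblast-like cluster, an alternative chosen after seeing the data, Ndrg1 was slightly higher in the Ndrg2-KO-DC wound than in the control wound (0.15, 0.080 to 0.22) and did not differ detectably in the blank wound (0.068, −0.0047 to 0.14). Ndrg4 was then at −0.10 (−0.62 to 0.43) and −0.19 (−0.76 to 0.38) against the control wound. Ndrg2 was at −1.15 (−1.94 to −0.36) with Ndrg2-KO DCs, from 31 and 28 UMIs, and at −0.72 (−1.52 to 0.085) with the blank hydrogel. Ndrg3 was lower with Ndrg2-KO DCs (−0.48, −0.75 to −0.21) and did not differ detectably with the blank hydrogel (−0.23, −0.51 to 0.051).

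Drawn to 1000 UMIs, leaving out 25, 95 and 65 shallower cells, 15.2%, 11.8% and 13.0% of wound cells held an Ndrg1 UMI with control DCs, Ndrg2-KO DCs and the blank hydrogel, and 48.7%, 36.6% and 41.1% did so undrawn. For Ndrg2 the drawn shares were 0.156%, 0.161% and 0.0899%, from 3, 9 and 3 cells, and the undrawn shares 6.26%, 2.18% and 2.38%. For Ndrg3 they were 0.832%, 0.644% and 0.719% drawn and 16.7%, 7.01% and 9.90% undrawn. For Ndrg4 they were 0.936%, 0.430% and 0.629% drawn and 16.1%, 5.58% and 6.46% undrawn.

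Undrawn, 23.0%, 21.4% and 19.2% of fibroblast-like cells held an Ndrg2 UMI, at median depths of 30029, 26709 and 28010 UMIs. In the larger neutrophil-like cluster, also assumed and not shown to lack Ndrg2, 0 of 359, 1 of 1744 and 0 of 1209 cells did. Median depths there were 3212, 2712 and 3252 UMIs. For Ndrg4 the shares were 61.0%, 56.2% and 55.7% of fibroblast-like cells and 0, 2 and 2 of the same neutrophil-like cells. Col1a1, a fibroblast gene, was at 136, 101 and 120 CPM in these neutrophil-like cells against 29847 CPM, 21238 CPM and 22264 CPM in fibroblast-like cells, given as a gauge of RNA from other cells.

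The 13 wound clusters were named from the same marker lists. The 2 largest were neutrophil-like. A fibroblast-like cluster had 7 of 7 markers, and 2 macrophage-like clusters were led by Mucl1, Dqx1 and Il10 and by Cd209f, Cd209g and Cd209b. Clusters led by Mmp12 and Mmp13 and by Gzmf, Gzmg and Gzmd were left unnamed, and a cluster led by Ear2, Ms4a4c and H2-Ab1 is called by those genes. A cluster led by Cfd, Rgs5 and Cldn5 had 7 of 7 endothelial markers but also 5 skeletal muscle, 4 pericyte and 4 melanocyte markers, so it was a mixture. The keratinocyte-like cluster also had 5 T cell, 3 melanocyte and 6 proliferation markers. Keratinocyte-like, erythroid-like, proliferating-like and mature DC-like clusters had 129, 76, 69 and 58 cells.

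Ndrg2 was found in the Cfd, Rgs5 and Cldn5 mixture (23.0, 16.4 and 24.6 CPM with control DCs, Ndrg2-KO DCs and the blank hydrogel, from 21, 11 and 18 UMIs), in fibroblast-like cells and in keratinocyte-like cells (9.84, 3.17 and 7.25 CPM, from 5, 2 and 7 UMIs). Col1a1 was at 4387, 3323 and 8072 CPM in the mixture, below its level in fibroblast-like cells. In the 2 neutrophil-like clusters, the 2 macrophage-like clusters and the clusters led by Mmp12 and by Ear2, Ndrg2 had 0 to 2 UMIs per cluster and library. The Mmp12 cluster had 0 Ndrg2 UMIs in all 3 libraries (intervals up to 1.505, 0.439 and 0.599 CPM).

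Because that cluster was mixed, wound cells were also grouped by having more markers of 1 list than of any other, and at least 3, after drawing to 1000 UMIs, a rule chosen after seeing the data. Over the 3 libraries, 1384 fibroblast-marker cells had 398 Ndrg2 UMIs (9.67 CPM), 30 endothelial-marker cells had 7 (8.70 CPM, 3.497 to 17.9, and 4.94 CPM without the Ndrg2-KO-DC wound) and 23 keratinocyte-marker cells had 6 (11.5 CPM, 4.21 to 24.99). By the same rule 9 skeletal muscle-marker cells had 8 Ndrg2 UMIs (451 CPM, 195 to 889), of which 7 were from the blank wound, and without it 4 cells had 1 UMI (152 CPM, 3.86 to 849). All 6 Ndrg2 UMIs of 4 pericyte or smooth muscle-marker cells were from 3 cells of the blank wound, with 0 in the 1 cell of the control wound, and 1 adipocyte-marker cell of the control wound had 6. In contrast, 1939 macrophage-marker cells had 3 Ndrg2 UMIs (0.114 CPM) and 3673 neutrophil-marker cells had 2 (0.137 CPM), all from the Ndrg2-KO-DC wound. At a finer clustering the highest Ndrg2 level (33.6 CPM) was in a cluster led by Cfd, Car3 and Acta1. It had 5 of 6 skeletal muscle markers but also 5 pericyte, 4 melanocyte, 3 Schwann and 3 adipocyte markers, so it was a mixture too.

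Ndrg4 was found mostly in fibroblast-like cells (43.4 CPM over the 3 libraries). It was also present in proliferating-like cells (30.9, 33.0 and 31.5 CPM), which had Col1a1 at 23708, 18503 and 15587 CPM and fewer than 20 cells with control DCs and with the blank hydrogel. In mature DC-like cells Ndrg4 was at 28.5, 32.8 and 24.1 CPM, from 4, 9 and 10 UMIs in 11, 19 and 28 cells, with Col1a1 at 28.5, 21.9 and 33.7 CPM. In the 2 macrophage-like clusters it had 0 to 5 UMIs per library.

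Ndrg3 was spread over most clusters. It was at 18.7, 12.8 and 18.2 CPM in the Mucl1 macrophage-like cluster and at 12.5, 16.1 and 26.1 CPM in the Gzmf cluster. It was at 12.5, 19.9 and 16.5 CPM in the Cd209f macrophage-like cluster and at 15.3, 22.3 and 17.7 CPM in the Cfd, Rgs5 and Cldn5 mixture. Summed over the neutrophil-like clusters it was at 0.614 CPM with Ndrg2-KO DCs and 1.36 CPM with the blank hydrogel, and at 0 of 1631524 UMIs with control DCs (interval up to 2.26 CPM).

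Ndrg1 was found in every cluster with at least 20 cells in a library. Beside fibroblast-like cells it was at 307, 299 and 309 CPM in mature DC-like cells, at 235, 234 and 273 CPM in the Ear2 cluster, and at 118, 168 and 186 CPM in the Mucl1 macrophage-like cluster. It was at 41.0, 32.4 and 50.7 CPM in the Cd209f macrophage-like cluster and at 46.6, 60.1 and 60.1 CPM in neutrophil-like cells. By markers, 10 mast-marker cells had 117 Ndrg1 UMIs (2213 CPM, 1830 to 2652) over the 3 libraries. Of these, 7 cells of the Ndrg2-KO-DC wound had 31 UMIs (1377 CPM, 936 to 1955). Without that wound 3 cells had 86 UMIs (2832 CPM, 2265 to 3497), so the level rests on few cells. In the Mmp12 and Mmp13 cluster Ndrg1 was at 244 CPM with control DCs, 361 CPM with Ndrg2-KO DCs and 220.5 CPM with the blank hydrogel, so there it was higher with Ndrg2-KO DCs against both other wounds (0.56, 0.43 to 0.69, against control DCs, and 0.71, 0.62 to 0.80, against the blank hydrogel). At the finer clustering, chosen after seeing the data, these cells fell mostly into a cluster led by Mmp13 (71, 493 and 153 cells with control DCs, Ndrg2-KO DCs and the blank hydrogel) and one led by Atp6v0d2 (102, 245 and 279 cells), in other proportions in each wound. Ndrg1 was higher with Ndrg2-KO than with control DCs in both (0.65, 0.45 to 0.85, and 0.28, 0.11 to 0.46), and than with the blank hydrogel (0.48, 0.36 to 0.61, and 0.66, 0.52 to 0.81).

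**Figure D3:**
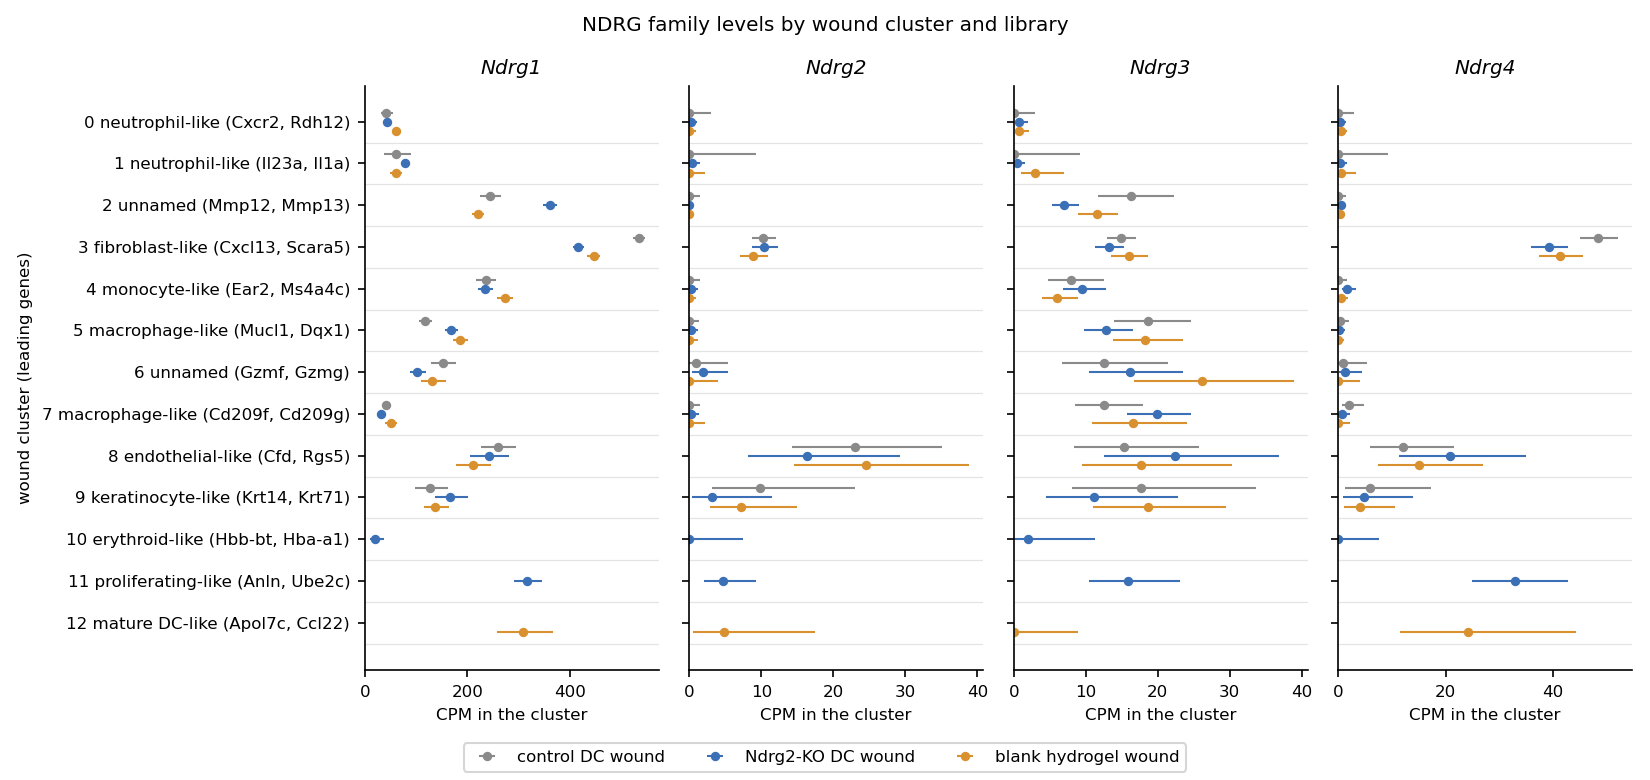
CPM of each member (horizontal axis, 1 panel per member with its own scale) in each wound cluster (vertical axis, with leading genes) for the control-DC (grey), Ndrg2-KO-DC (blue) and blank (orange) wounds, with exact 95% Poisson intervals, leaving out libraries with under 20 cells in a cluster. Ndrg4 was highest in fibroblast-like cells (48.4, 39.2 and 41.2 CPM), with lower levels in proliferating-like and mature DC-like cells, and Ndrg1 had UMIs in all the clusters drawn; names are those of the best marker list, also for the mixed cluster led by Cfd and Rgs5.

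The same 4 lists were read in wounds, and their part in the result was not tested. Over all genes counted, 4.39% were at least 2-fold higher and 6.22% lower with Ndrg2-KO DCs, and 3.71% higher and 3.89% lower with the blank hydrogel. With Ndrg2-KO against control DCs, 5 of 29 hypoxia response genes were at least 2-fold higher (Ankrd37, Egln3, Ero1l, Bnip3 and Gapdh, the most abundant), with a median of 0.60 against −0.15 over all genes, while Ndrg1 was lower. With the blank hydrogel 2 of 29 were higher (Ankrd37 and Egln3), with a median of 0.47 against −0.04. Among the 14 counted regulators and kinases, Myc, Epas1 and Vdr were at least 2-fold lower with Ndrg2-KO DCs (median −0.15), and Myc with the blank hydrogel (median 0.03). Myc was at 158 CPM, 63.8 CPM and 76.0 CPM with control DCs, Ndrg2-KO DCs and the blank hydrogel, and Sgk1, the most abundant of the list with control DCs, at 436, 296 and 334 CPM.

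None of the 9 early response and heat shock genes was past 2-fold with Ndrg2-KO DCs (median −0.35), and Hspa1a and Hspa1b were lower with the blank hydrogel (median −0.69). Junb was the most abundant in all 3 wounds. Of the vitamin D response genes 2 were counted, with Cd14 higher and Vdr lower with Ndrg2-KO DCs, and neither past 2-fold with the blank hydrogel.

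Across the 13 wound clusters, each summed over libraries, the 3 genes most like each member were found by Pearson's r of log2(CPM + 1) among 11620 genes, as a description. They were Cep85l (r = 0.925), Flna (0.917) and Micall1 (0.914) for Ndrg1, and Mapk8ip1 (0.973), Rnf122 (0.956) and Sema3f (0.944) for Ndrg2. They were Slc2a8 (0.982), Anapc7 (0.981) and Orc3 (0.981) for Ndrg3, and Tubb2b (0.983), Col27a1 (0.974) and Gstt1 (0.965) for Ndrg4. Across 15 DC clusters and 12106 genes they were Stat5a (0.938), Dusp11 (0.934) and Sirt5 (0.920) for Ndrg1, and Nefh (0.922), Gem (0.877) and Hes6 (0.874) for Ndrg2. They were Pabpc1 (0.903), Golph3 (0.871) and Slc8b1 (0.862) for Ndrg3, and Dpysl5 (0.960), Dscaml1 (0.954) and Zc2hc1a (0.944) for Ndrg4. Clusters share libraries, so they are not independent points.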

How the data were processed

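Single-cell 3′ RNA libraries of 3 dendritic cell cultures and 3 wounds were used as deposited. The authors made UMI counts with Cell Ranger (3.1.0 for cultures and 6.0.0 for wounds, per the file headers), and the deposited counts were whole numbers. Cells were kept when they had 300 genes or more, fewer than 100000 UMIs, and mitochondrial UMIs below 10%. Counts were summed over kept cells per library and given as CPM with exact Poisson intervals, ratios with exact conditional binomial intervals and shares with Clopper-Pearson intervals, all at 95%. No tests were made, since each condition is 1 library. Genes were counted as changed at 2-fold with at least 50 UMIs in the pair of libraries.

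For shares, each cell was drawn at random to 2000 UMIs (cultures) or 1000 UMIs (wounds). Cells were clustered without the NDRG genes in Seurat 5.3.0 (R 4.3.3; 2000 variable genes, 15 principal components, Louvain resolution 0.5) and named "-like" from marker lists when at least 3 markers passed. By its automatic limit Scrublet (scanpy 1.11.5) marked 0 or 1 cells as doublets in 5 of 6 libraries, which does not show that doublets were few. Doublets were kept, and leaving out the 6% of cells with the highest scores was an alternative. Between 1 and 19 kept barcodes were shared by any pair of libraries. Other alternatives changed the cell filter, scaling, depth, fold, minimum count and clustering. Members and lists were chosen with earlier results of these data known.

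Named genes are the 4 members, genes of the lists (regulators and kinases, hypoxia response, early response and heat shock, vitamin D response) past 2-fold or most abundant, and the 3 genes most like each member over clusters. Scripts used Python 3.11.15, NumPy 2.4.6, pandas 2.3.3, SciPy 1.17.1 and matplotlib 3.10.9. The ratio intervals, the share intervals and the drawing to a depth were tested on simulated data. The clustering, the naming of clusters and the grouping by markers were not.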

Additional observations from a re-analysis of the deposited data

Results flagged for a closer look

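Each value here is a log2 ratio of a member in 1 cell cluster whose counting interval excluded 0, listed because another cluster of the same comparison moved the opposite way. Each condition is 1 library, and the differences between clusters were not tested.

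In Ndrg2-KO against untreated DCs, Ndrg3 was higher in the cluster led by Ly6d, Cd79a and Hist1h2ae (1.75) and in the proliferating-like cluster led by Cdh1, Asgr2 and Ly6c2 (0.52), and lower in the cluster led by Eno3, Grasp and Dscaml1 (−1.13).

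In the wound with Ndrg2-KO DCs against the blank wound, Ndrg1 was higher in the neutrophil-like cluster led by Il23a (0.39) and the cluster led by Mmp12 (0.71). It was lower in the neutrophil-like cluster led by Cxcr2 (−0.48), the fibroblast-like cluster (−0.10) and the clusters led by Ear2 (−0.22), Gzmf (−0.36) and Cd209f (−0.65). In the larger fibroblast-like cluster of the finer clustering, however, it was higher (0.078, 0.015 to 0.14). Against the control wound, it was higher with Ndrg2-KO DCs in the clusters led by Mmp12 (0.56) and Mucl1 (0.51) and lower in the fibroblast-like cluster (−0.36) and the cluster led by Gzmf (−0.57).

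In the blank wound against the control wound, Ndrg1 was higher in the neutrophil-like cluster led by Cxcr2 (0.51) and the clusters led by Ear2 (0.21) and Mucl1 (0.66). It was lower in the clusters led by Mmp12 (−0.15) and by Cfd (−0.30) and in the fibroblast-like cluster (−0.26). At the finer clustering, cells of the Mmp12 cluster did not share 1 direction. Ndrg1 was at 0.16 (−0.055 to 0.39) in the Mmp13 cluster and at −0.38 (−0.56 to −0.19) in the Atp6v0d2 cluster. Ndrg3 with Ndrg2-KO against control DCs was higher in the macrophage-like cluster led by Cd209f (0.66) and lower in the cluster led by Mmp12 (−1.22).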

How the results depend on the processing

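Of 188 log2 ratios of the members under an alternative, 147 stayed inside the counting interval of the reported value, 37 moved outside it and 4, whose interval excluded 0, changed sign. Among the 37 are further sign changes of ratios whose interval covered 0. The cause was not tested for any of them. With cells of the highest doublet scores left out, 24 of 24 stayed inside.

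With a minimum of 300 UMIs in place of 300 genes, log2 ratios moved, giving for the Ndrg2-KO-DC against the control wound Ndrg1 −0.58 and for the Ndrg2-KO-DC against the blank wound Ndrg1 −0.11. With all deposited barcodes they moved, giving for the Ndrg2-KO-DC against the control wound Ndrg1 −0.57, for the blank against the control wound Ndrg1 −0.45 and for the Ndrg2-KO-DC against the blank wound Ndrg1 −0.13. With cells under 5% mitochondrial UMIs they moved, giving for VD3 against untreated DCs Ndrg1 −0.18 and Ndrg4 −1.73, for Ndrg2-KO against untreated DCs Ndrg1 −1.30 and Ndrg3 0.88 and for Ndrg2-KO against VD3 DCs Ndrg1 −1.12, Ndrg3 0.18 and Ndrg4 0.49. Under median-ratio scaling they moved, giving for VD3 against untreated DCs Ndrg1 0.041, for the Ndrg2-KO-DC against the control wound Ndrg1 −0.38 and for the Ndrg2-KO-DC against the blank wound Ndrg1 0.068.

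As a mean over cells of CPM they moved, giving for VD3 against untreated DCs Ndrg1 −0.21, Ndrg3 0.58 and Ndrg4 −1.70, for Ndrg2-KO against untreated DCs Ndrg1 −1.28 and Ndrg4 −1.02, for Ndrg2-KO against VD3 DCs Ndrg1 −1.07, Ndrg3 0.12 and Ndrg4 0.68, for the Ndrg2-KO-DC against the control wound Ndrg1 −0.46, Ndrg3 −0.65 and Ndrg4 −1.49, for the blank against the control wound Ndrg1 −0.44 and Ndrg4 −1.35 and for the Ndrg2-KO-DC against the blank wound Ndrg2 −0.34. With a total lacking mitochondrial and ribosomal protein genes they moved, giving for VD3 against untreated DCs Ndrg1 0.052, for Ndrg2-KO against untreated DCs Ndrg1 −1.68 and for Ndrg2-KO against VD3 DCs Ndrg1 −1.73 and Ndrg3 −0.26. Without the Ndrg2-KO cells of the Eno3 cluster, chosen after seeing the data, 1 value moved, giving for Ndrg2-KO against untreated DCs Ndrg4 −1.40. Without the fibroblast-like cluster, also chosen after seeing the data, they moved, giving for the Ndrg2-KO-DC against the control wound Ndrg1 0.15 and Ndrg4 −0.10, for the blank against the control wound Ndrg1 0.068 and Ndrg4 −0.19 and for the Ndrg2-KO-DC against the blank wound Ndrg1 0.080, Ndrg2 −0.43 and Ndrg4 0.089. The sign changes were those of Ndrg3 in Ndrg2-KO against VD3 DCs, under 5% mitochondrial UMIs and as a mean over cells, and of Ndrg1 in the Ndrg2-KO-DC and blank wounds against the control wound, without the fibroblast-like cluster. Of 24 ratios in cells with mature DC markers, 19 stayed inside and 5 moved, all 5 with at least 2 markers in place of 3, giving for Ndrg2-KO against untreated DCs Ndrg1 −1.60 and Ndrg4 −1.18 and for Ndrg2-KO against VD3 DCs Ndrg1 −1.38, Ndrg3 −0.26 and Ndrg4 0.60. Of 12 ratios within fibroblast-like cells, 8 stayed inside at the finer clustering, 3 moved and 1 changed sign, that of Ndrg1 in the Ndrg2-KO-DC against the blank wound (0.078). Of 12 ratios of Ndrg1 and Ndrg3 in the Mmp12 cluster, 6 stayed inside, 5 moved, among them Ndrg3 in the Ndrg2-KO-DC against the control wound (−0.59, Mmp13 cluster), and 1 changed sign, that of Ndrg1 in the blank against the control wound (0.16, Mmp13 cluster).

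Counts of genes past the fold limit stayed within 1.5 times in 16 of 36 cases, 12 of them under median-ratio scaling. At a fold of 1.5, the counts that moved by over 1.5 times were, for VD3 against untreated DCs 1275 higher and 2100 lower, Ndrg2-KO against untreated DCs 2410 higher and 2541 lower, Ndrg2-KO against VD3 DCs 2870 higher and 2358 lower, the Ndrg2-KO-DC against the control wound 1261 higher and 2308 lower, the blank against the control wound 1209 higher and 1673 lower and the Ndrg2-KO-DC against the blank wound 617 higher and 888 lower. With a minimum of 200 UMIs, the counts that moved by over 1.5 times were, for VD3 against untreated DCs 358 higher, Ndrg2-KO against untreated DCs 812 lower, the Ndrg2-KO-DC against the control wound 391 higher and 482 lower, the blank against the control wound 298 higher and 285 lower and the Ndrg2-KO-DC against the blank wound 116 higher and 104 lower.

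Shares of cells with a UMI rose with depth, and 47 of 48 moved outside their interval. In DCs drawn to 5000 UMIs, in the order untreated, VD3 and Ndrg2-KO, the shares with a UMI were 16.3%, 16.1% and 6.87% for Ndrg1, 2.05%, 0.582% and 0.416% for Ndrg2, 5.93%, 10.2% and 10.0% for Ndrg3 and 3.55%, 1.26% and 1.81% for Ndrg4. In wound cells drawn to 2000 UMIs, in the order control DCs, Ndrg2-KO DCs and blank, the shares with a UMI were 25.1%, 20.9% and 21.0% for Ndrg1, 0.650%, 0.350% and 0.378% for Ndrg2, 1.90%, 1.42% and 1.86% for Ndrg3 and 3.03% and 0.857% for Ndrg4 in the first 2 of these. In undrawn DCs in the same order, the shares with a UMI were 34.7%, 26.3% and 15.7% for Ndrg1, 5.58%, 1.496% and 1.23% for Ndrg2, 20.2%, 22.7% and 29.4% for Ndrg3 and 8.53%, 2.79% and 3.90% for Ndrg4. In undrawn wound cells in the same order, the shares with a UMI were 48.7%, 36.6% and 41.1% for Ndrg1, 6.26%, 2.18% and 2.38% for Ndrg2, 16.7%, 7.01% and 9.90% for Ndrg3 and 16.1%, 5.58% and 6.46% for Ndrg4.

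The level in the wound cluster where a member was highest stayed inside its interval in 5 of 12 cases. In the others it was 494 CPM for Ndrg1 (resolution 1.0), 456 CPM for Ndrg1 (30 principal components), 33.6 CPM for Ndrg2 (resolution 1.0), 13.3 CPM for Ndrg2 (without the highest doublet scores), 17.4 CPM for Ndrg3 (30 principal components), 20.7 CPM for Ndrg3 (without the highest doublet scores) and 45.6 CPM for Ndrg4 (resolution 1.0). Depth limits Ndrg2 most, with 115 to 181 UMIs per wound library. No paired analysis was possible because each condition is 1 library and no result comes from a test.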

Other observations

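By markers, 4 Schwann-marker cells of the wounds had 20 Ndrg1 UMIs over the 3 libraries (1200.1 CPM, 733 to 1853), of which 18 were from the Ndrg2-KO-DC wound and without it 2 UMIs of 1 cell (496 CPM) were left, and 63 mature DC-marker cells had 249 Ndrg1 UMIs (307 CPM). The Schwann-marker group was too small to compare between libraries. In mature DC-marker cells Ndrg1 was at 195 CPM (127 to 286) with control DCs, from 12 cells. It was at 299.5 CPM (240 to 369) with Ndrg2-KO DCs, from 21 cells, and at 351 CPM (294 to 415) with the blank hydrogel, from 30 cells.

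Each condition is 1 library, so differences between conditions and between libraries cannot be told apart. Each wound group had 5 mice and 1 library, and the cells put on the wounds cannot be separated from those of the host by these counts. UMIs of Ndrg2 count RNA and not edited alleles. Cluster names were rebuilt from marker lists, and clusters of the cultures follow the library. The share of RNA from other cells was not estimated. Small cell groups, such as skeletal muscle-marker and pericyte-marker cells, rest on under 10 Ndrg2 UMIs each. Protein was not measured here.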
